A study of Mus musculus with 6 samples.

Results

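The genes examined here were 10 genes of extracellular proteolysis in macrophages: the matrix metalloproteinases Mmp2, Mmp12, Mmp13, Mmp14, Mmp19 and Mmp27, the membrane protease Adam17, and the tissue inhibitors of metalloproteinases Timp1, Timp2 and Timp3. They were chosen by name, and all 10 of 10 were found among the 54648 gene symbols of the deposited table. Expression was measured by RNA-seq in 6 libraries of peritoneal cells from C57BL/6 mice aged 6 to 8 weeks, 3 from wild-type mice (WT 1 to WT 3) and 3 from mice homozygous for a FOXO3 knockout (FOXO3 KO 1 to FOXO3 KO 3), male and female, on standard chow. All mice of both groups had received thioglycollate in the abdomen, an irritant that recruits monocytes which mature into macrophages there, and all cells of a KO mouse carry the knockout. The harvested cells were used as predominantly macrophages without a described sort, and the labels number the samples without stating that each is a separate mouse, so p-values measure the spread between these libraries.

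Matrix metalloproteinases are zinc enzymes, made as inactive precursors, that cut collagens, elastin and other matrix proteins as well as chemokines and cell-surface proteins. TIMP proteins bind their active sites and block them, and TIMP3 also inhibits ADAM17, the enzyme that releases tumor necrosis factor and several receptors from the cell surface. Macrophages are a main source of MMP12, the macrophage elastase, and MMP14, a membrane-bound enzyme, activates pro-MMP2 in a complex with TIMP2. FOXO3 is a forkhead transcription factor.

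Library totals were between 28083393 and 36424117 counts. Foxo3 was at 117, 107 and 73.1 CPM (the normalised count, relative to the TMM-scaled library size) in WT 1, WT 2 and WT 3, and at 4.71, 104 and 4.29 CPM in FOXO3 KO 1, FOXO3 KO 2 and FOXO3 KO 3. The library labelled FOXO3 KO 2 therefore had Foxo3 within the WT range, against its label, and the fold changes of the 9 genes tested are given with and without it. WT 3 stood apart across genes. Its log2 expression correlated with the other libraries at r = 0.917 to 0.951, where all other pairs lay between 0.980 and 0.990. Xist, which is expressed in female cells, had 31162 counts in WT 3 and 37681 in FOXO3 KO 3 and between 2 and 5 in the other libraries, so both sexes are in each group. The 12 macrophage markers summed to between 14654 and 19715 CPM in every library.

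Among the 10 genes, Mmp12 and Timp2 were the most abundant and Mmp2 was barely detected. Levels of different genes were compared per length, as RPKM (CPM per kilobase of annotated exon). Mmp12 had a mean of 212 RPKM over the 6 libraries (range 65.5 to 283) and Timp2 of 210 RPKM (range 147 to 237). Mmp12 was above Timp2 in 4 of 6 libraries, so their order on this length was not separated from the spread. With the longest transcript as length, the means were further apart, at 342 RPKM for Mmp12 and 220 RPKM for Timp2. Both stood high in the transcriptome. Among 12956 protein-coding genes tested, Mmp12 lay between percentiles 95.6 and 99.1 across the libraries and Timp2 between 98.4 and 98.8.

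Mmp19 followed at a mean of 45.1 RPKM and Adam17 at 40.9 RPKM, with Mmp19 the higher in 4 of 6 libraries. Their order turned when the longest transcript was used as length, which gave 46.8 for Mmp19 and 65.5 for Adam17. Below them, Mmp14 (18.8 RPKM), Mmp27 (14.6 RPKM) and Mmp13 (7.90 RPKM) kept this order in 6 of 6 libraries, although their ranges overlapped. The remaining inhibitors were low: Timp1 had a mean of 2.23 RPKM and Timp3 of 1.29 RPKM, with Timp1 the higher in 5 of 6 libraries. Of neighbours in this order, Timp2 and Mmp19, and Timp3 and Mmp2, had ranges that did not overlap.

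**Figure D1:**
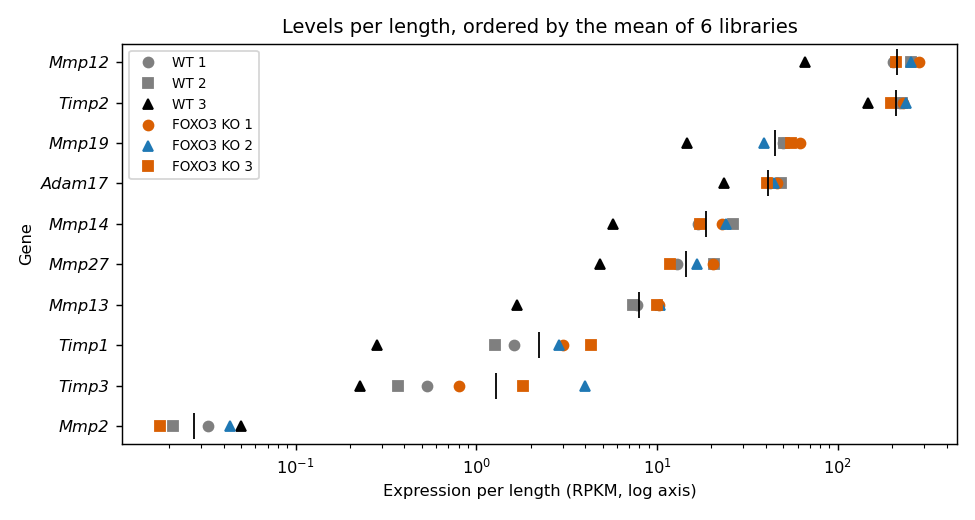
Expression per length (RPKM, log axis) of the 10 genes in each library, ordered by the mean of the 6 libraries, which the vertical bars mark. Mmp12 and Timp2 lead at means of 212 and 210 RPKM, WT 3 (black triangle) is the lowest point of every gene but Mmp2, and Mmp2 in FOXO3 KO 1, at 0, is not drawn.

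Mmp13, Mmp12 and Mmp27 lie in this order on chromosome 9 on the plus strand (GRCm38 chr9:7272514-7283331, chr9:7344381-7369499 and chr9:7571396-7581885). No annotated protein-coding gene lies in the 61 kb between Mmp13 and Mmp12, and 3 lie in the 202 kb between Mmp12 and Mmp27. The RefSeq sequences (GRCm38.p6, plus strand) of the 250 bases before a start site are shown for these neighbours because they are neighbours and all were low in WT 3, as were Mmp14 and Mmp19 on other chromosomes. Mmp13 is shown from chr9:7272264-7272513, the later of 2 starts of Mmp12, inside the annotated gene, from chr9:7347124-7347373, and Mmp27 from chr9:7571146-7571395. The first start of Mmp12 (chr9:7344147-7344396) is not shown, so the Mmp12 sequence printed is the one with a match. Capitals mark matches to a forkhead motif (GTAAACA, read here on the other strand as TGTTTAC) and to an AP-1 motif (TGANTCA), both searched on both strands.
Mmp13: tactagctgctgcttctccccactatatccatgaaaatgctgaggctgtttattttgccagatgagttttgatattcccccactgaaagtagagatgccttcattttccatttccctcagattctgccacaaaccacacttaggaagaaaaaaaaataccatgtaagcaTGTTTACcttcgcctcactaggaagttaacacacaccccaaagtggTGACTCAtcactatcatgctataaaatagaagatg
Mmp12: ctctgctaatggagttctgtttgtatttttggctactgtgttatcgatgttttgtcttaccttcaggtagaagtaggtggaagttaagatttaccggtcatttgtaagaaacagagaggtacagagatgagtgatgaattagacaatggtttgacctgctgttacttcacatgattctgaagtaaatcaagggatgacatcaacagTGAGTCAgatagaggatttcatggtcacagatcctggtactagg
Mmp27: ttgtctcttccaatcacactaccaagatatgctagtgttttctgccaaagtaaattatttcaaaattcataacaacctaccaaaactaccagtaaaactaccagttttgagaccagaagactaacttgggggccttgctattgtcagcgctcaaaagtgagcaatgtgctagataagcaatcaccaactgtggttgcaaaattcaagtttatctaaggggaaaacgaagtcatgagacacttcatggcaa
The forkhead match in Mmp13 begins at position -81 from the start and its AP-1 match at -35, without overlap. The AP-1 match of Mmp12 begins at -44. Over all 32851 RefSeq windows of the same kind, which also take in the 50 bases after the start, 3.65% held the forkhead motif and 7.81% the AP-1 motif. Windows were given for 8 of the 10 genes, Mmp2 and Mmp19 being those without, and Mmp27, Mmp14, Adam17, Timp1, Timp2, Timp3 and the first start of Mmp12 held neither motif.

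Mmp12, macrophage elastase, was at 1464, 1838 and 474 CPM in WT 1, WT 2 and WT 3 and at 2051, 1843 and 1520.2 CPM in FOXO3 KO 1, FOXO3 KO 2 and FOXO3 KO 3. The KO libraries overlapped WT 1 and WT 2, and WT 3 was the low library. WT libraries averaged 1259 ± 705 CPM (SD, n = 3), and KO libraries averaged 1805 ± 268 CPM (SD, n = 3). The log2 fold change of KO over WT was 0.52 (SE 0.48, adjusted p = 0.863 by edgeR's quasi-likelihood test), and 0.14 without WT 3.

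Mmp13, collagenase-3, was at 20.7, 19.7 and 4.50 CPM in WT 1, WT 2 and WT 3 and at 27.4, 27.7 and 26.7 CPM in the KO libraries. All 3 KO libraries were above all WT libraries and close to each other, the library labelled FOXO3 KO 2 included. The means were 15.0 ± 9.06 CPM (SD, n = 3) and 27.3 ± 0.502 CPM (SD, n = 3). The log2 fold change was 0.87 with a 95% interval of -0.40 to 2.14 (adjusted p = 0.843, edgeR's quasi-likelihood test), and the exact two-sided permutation test on log2(CPM + 0.5) gave p = 0.10, the smallest that 3 libraries against 3 allow. Without WT 3 the difference was smaller and its interval narrower, at 0.45 (0.25 to 0.65), a 1.36-fold difference that is under the threshold of 1.5-fold (adjusted p = 0.440). DESeq2 gave Mmp13 an adjusted p of 0.807 with all libraries. Without WT 3, a fit chosen after seeing the data, DESeq2 gave 0.0437, and without FOXO3 KO 2 as well it gave 0.393.

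Mmp27 was at 28.5, 45.8 and 10.7 CPM in the WT libraries and at 45.4, 36.6 and 26.0 CPM in the KO libraries. The groups overlapped, with WT 2 the highest and WT 3 the lowest library. Its log2 fold change was 0.35 (SE 0.51, adjusted p = 0.900 by edgeR's quasi-likelihood test), and -0.03 without WT 3. Across the 3 neighbours, WT 3 was lower than the mean of WT 1 and WT 2 by a factor of 4.48 for Mmp13, 3.48 for Mmp12 and 3.48 for Mmp27.

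Mmp14, the membrane-type enzyme (chr14:54431612-54445364), was at 100, 156 and 34.1 CPM in WT and at 136, 143 and 103 CPM in KO. WT 2 was the highest and WT 3 the lowest library, and the log2 fold change was 0.40 (SE 0.51, adjusted p = 0.887 by edgeR's quasi-likelihood test) with all libraries and 0.00 without WT 3. Mmp14 kept nearly the same proportion to Mmp12 in every library, between 0.0664 and 0.0849 in CPM.

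Mmp19 (chr10:128790910-128800824) was at 175, 178 and 51.9 CPM in WT and at 218, 139 and 194 CPM in KO. It was higher in FOXO3 KO 1 and FOXO3 KO 3 than in any WT library, and the library labelled FOXO3 KO 2 lay between WT 3 and WT 1. With all libraries the log2 fold change was 0.45 (SE 0.47, adjusted p = 0.871 by edgeR's quasi-likelihood test), and it was 0.61 (SE 0.54) without FOXO3 KO 2 and 0.07 without WT 3.

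Mmp2, gelatinase A (chr8:92827291-92853420), had 4, 2 and 6 counts in WT and 0, 4 and 2 counts in KO. It did not pass the filter on low counts, and with between 0 and 6 counts in any library no fold change is given. Mmp14, whose protein activates pro-MMP2, and Timp2, the inhibitor that takes part in this activation, were both well detected in the same libraries.

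Adam17 (chr12:21323509-21373632, minus strand) was at 301, 346 and 169 CPM in WT and at 329, 319.6 and 292 CPM in KO. The KO libraries lay between WT 1 and WT 2 or just below WT 1, and WT 3 was again the lowest. The means were 272 ± 92.2 CPM (SD, n = 3) and 314 ± 19.1 CPM (SD, n = 3), with a log2 fold change of 0.21 (95% interval -0.44 to 0.85, adjusted p = 0.889 by edgeR's quasi-likelihood test) and of -0.03 without WT 3.

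Timp2, the main inhibitor by level (chr11:118301069-118355740, minus strand), was at 858, 887 and 574 CPM in WT and at 897, 924 and 764 CPM in KO. It was the steadiest of the 9 genes that passed the filter, the highest library being 1.61 times the lowest. Its log2 fold change was 0.16 (95% interval -0.36 to 0.68, adjusted p = 0.893 by edgeR's quasi-likelihood test) and -0.01 without WT 3.

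Timp1, a secreted inhibitor (chrX:20870166-20874735), was at 1.44, 1.13 and 0.252 CPM in WT and at 2.69, 2.55 and 3.84 CPM in KO, or 52, 32 and 9 counts against 76, 70 and 128 counts. Every KO library was above every WT library. WT averaged 0.940 ± 0.616 CPM (SD, n = 3), and KO averaged 3.03 ± 0.704 CPM (SD, n = 3). The fitted difference was 3.22-fold, a log2 fold change of 1.69 with a 95% interval of 0.22 to 3.16, with an unadjusted p of 0.0308 that did not pass the adjustment over all genes (adjusted p = 0.833, edgeR's quasi-likelihood test). The exact permutation test gave p = 0.10, the smallest possible here. It was 1.79 without FOXO3 KO 2 (SE 0.71) and 1.24 without WT 3 (SE 0.30) on the log2 scale.

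Timp3, the matrix-bound inhibitor of MMPs and ADAM17 (chr10:86300372-86349506), was at 4.32, 3.0 and 1.85 CPM in WT and at 6.56, 32.5 and 14.8 CPM in KO, or 156, 85 and 66 counts against 185, 890 and 493 counts. All KO libraries were above all WT libraries, but the 3 KO libraries were far apart, and the highest was the library labelled FOXO3 KO 2, in which Foxo3 was at its WT level. WT averaged 3.06 ± 1.24 CPM (SD, n = 3), and KO averaged 17.9 ± 13.2 CPM (SD, n = 3).

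The fitted difference of Timp3 was the largest of the 9 genes, at 5.86-fold or 2.55 on the log2 scale (95% interval 1.01 to 4.10). Its unadjusted p was 0.00655, and it did not pass the adjustment over all genes (adjusted p = 0.714, edgeR's quasi-likelihood test). DESeq2 called it with all 6 libraries (adjusted p = 0.00550) and not without FOXO3 KO 2 (adjusted p = 0.149) or without WT 3 (adjusted p = 0.183). Without FOXO3 KO 2 the log2 fold change was 1.80 by edgeR's quasi-likelihood test (SE 0.51, adjusted p = 0.928). The edgeR value without WT 3 was 2.29 (SE 0.67, adjusted p = 0.513). The exact permutation test with all libraries gave p = 0.10.

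**Figure D2:**
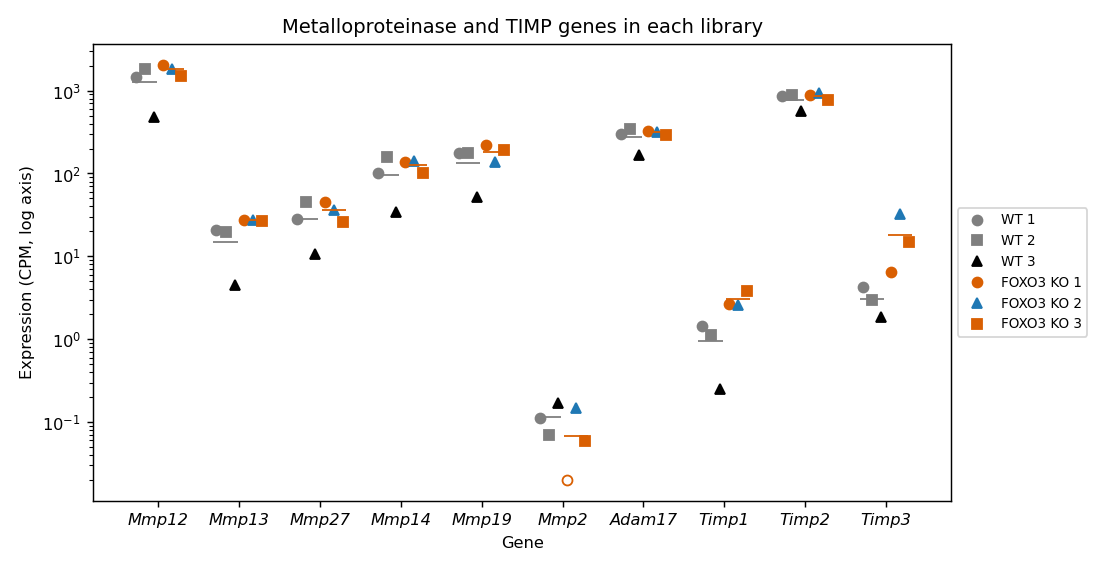
CPM (log axis) of the 10 genes in each of the 6 libraries, with a horizontal line at the mean of each group. Mmp13, Timp1 and Timp3 have all KO libraries above all WT libraries, WT 3 (black triangle) is lowest for 9 genes, and the open symbol stands for Mmp2 at 0 in FOXO3 KO 1.

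Over the genes as a group, values were higher in KO on average, but none of the 10 genes passed edgeR's quasi-likelihood test. Of the 9 that passed the filter, 9 had a positive log2 fold change, with a median of 0.45, where the median of all 15608 genes tested was -0.01. A gene was called where its FDR was under 0.05 and its fold change over 1.5. edgeR's quasi-likelihood test called 0 of the 9 and 0 of the 15608 (0%), among which 887 had an unadjusted p under 0.05. It also called 0% without FOXO3 KO 2 and 0% without WT 3. Foxo3 itself was not called by edgeR's quasi-likelihood test with all 6 libraries (log2 fold change -1.40, adjusted p = 0.859). Without FOXO3 KO 2 its log2 fold change was -4.46, again not called (unadjusted p = 1.4e-05, adjusted p = 0.105 by the same test). A gene that this test did not call is thus not shown to be unchanged. DESeq2 called 166 of 17359 genes (0.956%), 1 of them, Timp3, being among the 10 genes. The likelihood ratio test of edgeR called 109 genes with Timp3 among them, and limma-voom called 0.

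At an unadjusted p under 0.05 with a fold change over 1.5 in KO, edgeR's quasi-likelihood test gave 2 of the 9 genes, Timp1 and Timp3, beside 3.28% of all genes. Without FOXO3 KO 2 it gave 1, Timp3, beside 2.71%, and without WT 3 it gave 2, again Timp1 and Timp3, beside 4.50%. All KO libraries were above all WT libraries for 3 of the 9 (Mmp13, Timp1 and Timp3), beside 7.0% of all genes, and below them for 0 of the 9, beside 5.36%. Among the other 6 genes, exact permutation tests gave p = 0.20 for Mmp12 and between 0.50 and 0.70 for the rest. Without FOXO3 KO 2, all 9 log2 fold changes were positive with a median of 0.50. They were then 0.50 for Mmp12, 0.86 for Mmp13, 0.33 for Mmp27, 0.30 for Mmp14, 0.19 for Adam17 and 0.10 for Timp2, beside the values of Mmp19, Timp1 and Timp3 given above. Without WT 3, 6 were positive and 3 negative with a median of 0.07, and Mmp12, Mmp14, Mmp19, Mmp27, Adam17 and Timp2 all lay between -0.03 and 0.14.

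High and low Xist counts split each group, and WT 3 is the 1 WT library with a high count, so that its low values and this split cannot be told apart in WT. Among the 4 libraries with 5 or fewer Xist counts, Mmp13 was at 20.7 and 19.7 CPM in WT and at 27.4 and 27.7 CPM in KO, Timp1 at 1.44 and 1.13 against 2.69 and 2.55 CPM, and Timp3 at 4.32 and 3.0 against 6.56 and 32.5 CPM. The pair with high Xist counts, WT 3 and FOXO3 KO 3, was at 4.50 and 26.7 CPM for Mmp13, 0.252 and 3.84 CPM for Timp1, and 1.85 and 14.8 CPM for Timp3. The direction was the same on either side of the split. This had to be so, since all KO libraries lay above all WT libraries for these genes, and it does not test the split. With the split as a covariate, the log2 fold changes were 1.11 for Mmp13, 1.84 for Timp1 and 2.6 for Timp3 (adjusted p = 0.475, 0.445 and 0.383 by edgeR's quasi-likelihood test). Without FOXO3 KO 2 the same fit gave 1.36, 2.15 and 1.79 (adjusted p = 0.290, 0.243 and 0.231).

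**Figure D3:**
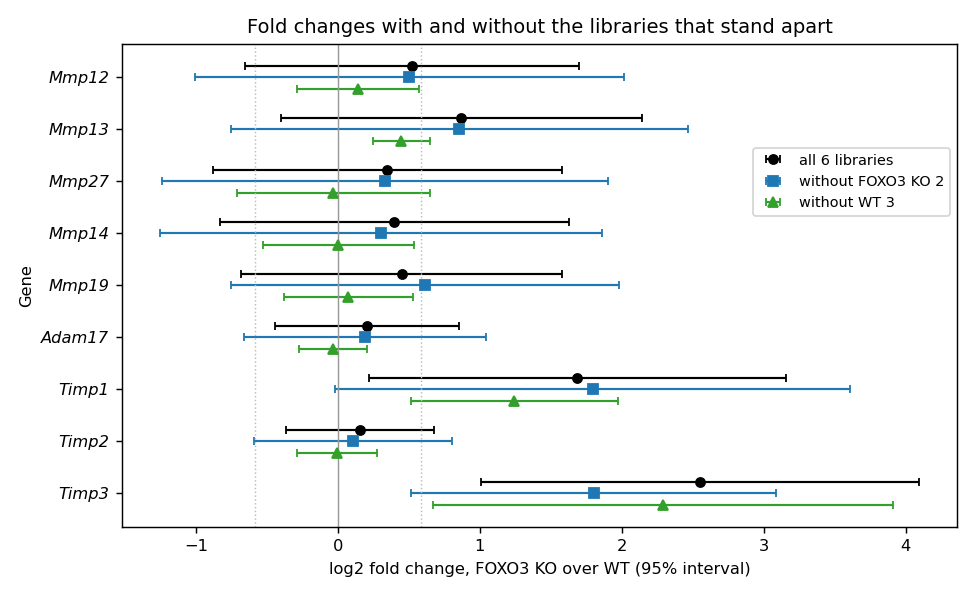
log2 fold change of KO over WT with its 95% interval from edgeR's quasi-likelihood fit for the 9 genes tested, with all 6 libraries and without either library that stands apart (dotted lines at 1.5-fold either way). Without WT 3 the enzymes other than Mmp13 lie near 0, while Timp1 at 1.24 and Timp3 at 2.29 stay to the right of it.

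WT 3 was thus the library on which most of the WT spread rested. It was the lowest of the 6 libraries for 9 of the 9 genes, beside 37.5% of all genes, and under 0.5 times the mean of WT 1 and WT 2 for 6 of the 9, beside 10.5% of all genes. The 6 were Mmp12, Mmp13, Mmp14, Mmp19, Mmp27 and Timp1, whose mean in WT 1 and WT 2 was between 3.39 and 5.11 times the level in WT 3. For Adam17, Timp2 and Timp3 it was 1.92, 1.52 and 1.98 times.

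The summed markers of several other cell types were highest in the same library, and those of neutrophils and fibroblasts lowest. All 7 of 7 markers of resident peritoneal macrophages were detected, none was at 0, and they summed to between 576 and 6386 CPM in WT and between 726 and 1189 CPM in KO. WT 3 was the library at 6386 CPM, and it was the highest library for 6 of the 7 markers. In it Timd4, a phosphatidylserine receptor, was at 318 CPM or 24.2 times the mean of WT 1 and WT 2, and Gata6, the transcription factor of this cell type, at 41.2 CPM or 9.28 times. B cell markers summed to 3611 CPM in WT 3, where the other libraries lay between 198 and 823 CPM, and mast cell markers to 831 CPM, where they lay between 107 and 305 CPM. T cell markers (265 against 31.4 to 87.2 CPM) were highest there too. Dendritic cell markers also had their highest sum there (179 against 60.3 to 116 CPM). However, WT 3 was the highest library for only 1 of these 8 markers and the lowest for 4. Eosinophil markers lay between 37.4 and 95 CPM in all libraries. The part of these cells in the low values of WT 3 was not tested, and in bulk RNA fewer cells of a type and less RNA per cell cannot be told apart.

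The 12 macrophage markers were themselves divided in WT 3. It was the lowest library for 8 of them, with Cd68 at 525 CPM against 1337 and 1472 CPM in WT 1 and WT 2, Mrc1 at 193 against 579 and 573 CPM and Fcgr1 at 62.2 against 151 and 175 CPM, and the highest for 3, Adgre1, C1qa and Itgam. Their sum is mostly Lyz2, at 9151 of 16918 CPM in WT 1. Per 1000 CPM of this sum, Mmp12 was at 86.5, 93.3 and 32.4 CPM in WT and at 120.3, 100.2 and 92.0 CPM in KO. Mmp13 was at 1.22, 0.999 and 0.307 in WT and at 1.61, 1.51 and 1.62 in KO, again without overlap of the groups. The neutrophil markers, of which Elane and Camp were under 0.1 CPM in all libraries, summed to between 137 CPM, in WT 3, and 225 CPM in WT and between 231 and 503 CPM in KO, the library labelled FOXO3 KO 2 being at 231. The part of neutrophils in the KO values was not tested.

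**Figure D4:**
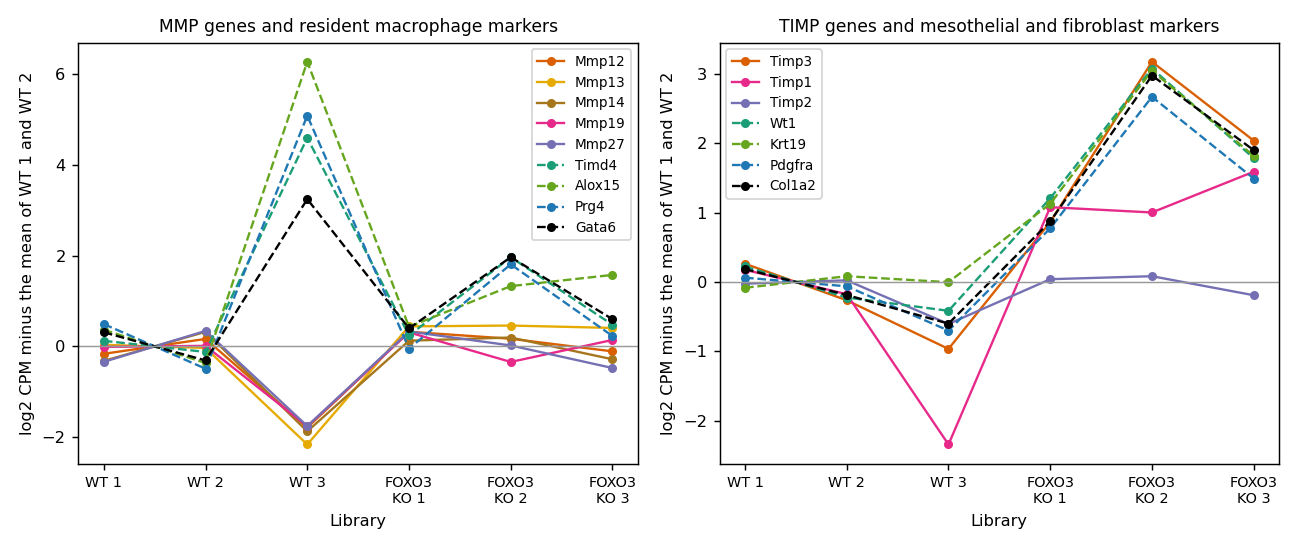
log2 CPM of each gene minus the mean of WT 1 and WT 2 in each library, with MMPs and resident macrophage markers on the left and TIMPs with 2 of the 8 mesothelial markers (Wt1, Krt19) and 2 of the 8 fibroblast markers (Pdgfra, Col1a2) on the right; solid lines are the genes of interest, dashed lines the markers, and lines only join the points of a gene. On the left the MMPs drop in WT 3, where the 4 resident markers drawn, of 7 listed, peak. WT 3 was the highest library for 6 of those 7. On the right the KO libraries rank alike for Timp3 and the 4 markers drawn, which were picked after their values were seen. In WT 3 Krt19 does not drop with Timp3, being 0.996 times the mean of WT 1 and WT 2 where Timp3 is 0.504 times. Timp2 stays near 0 but for WT 3. Markers of the same lists that went another way are not drawn, among them Krt8 and Krt18, which were highest in WT 3.

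Timp3 shared its pattern over the libraries with part of the mesothelial and fibroblast markers. Its libraries ranked, from low to high, WT 3, WT 2, WT 1, FOXO3 KO 1, FOXO3 KO 3 and FOXO3 KO 2. The same order was found for 2 of the 6 mesothelial markers tested (Upk3b and Wt1) and 4 of the 6 fibroblast markers tested (Col1a1, Col1a2, Pdgfra and Dcn). Of the other genes tested, 129 (0.827%) had it. This share is over all genes, while the order can occur only among the 1093 genes with all KO libraries above all WT libraries. It was found for 0 of the 12 macrophage markers, which is near the share over all genes and gives no contrast. Wt1, a transcription factor of mesothelium, was at 1.83, 1.34 and 1.17 CPM in WT and at 3.61, 13.2 and 5.40 CPM in KO, and Pdgfra, a fibroblast receptor, was at 3.46, 3.18 and 2.04 CPM and at 5.67, 21.1 and 9.32 CPM. Other markers of the same lists went another way: the keratins Krt8, at 1.52, 1.45 and 7.02 CPM in WT and 2.16, 4.78 and 2.61 CPM in KO, and Krt18, at 0.748, 0.353 and 2.01 CPM and 0.921, 1.42 and 0.630 CPM, were highest in WT 3, where Timp3 was lowest, and Col3a1 and Pdpn of the fibroblast list overlapped between groups.

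The ratio of Timp3 to Wt1 and to Pdgfra varied little beside the 17.6-fold range of Timp3 itself. Both were picked for ranking the libraries as Timp3 did, so a steady ratio partly follows from that choice. No ratio was taken to markers that went another way, such as Krt8 and Krt18. Timp3 over Wt1 was between 1.57 and 2.74 in CPM, and Timp3 over Pdgfra between 0.904 and 1.59, with the groups overlapping in both ratios. The 8 mesothelial markers listed summed to 7.20, 6.00 and 13.2 CPM in WT 1, WT 2 and WT 3. In FOXO3 KO 1, FOXO3 KO 2 and FOXO3 KO 3 they summed to 12.4, 42.7 and 17.4 CPM. WT 3, the lowest library for Timp3, was thus the highest WT library in this sum and above FOXO3 KO 1. Msln and Muc16 were under 1 CPM in every library. The 8 fibroblast markers summed to between 64.1 CPM, in WT 3, and 160.0 CPM in WT and between 245 and 561 CPM in KO, with Lum and Dpt under 1 CPM throughout. The part of such cells in the Timp3 difference was not tested. Timp1 did not share this order, since the library labelled FOXO3 KO 2 was its lowest KO library, and its ratio to Wt1 ranged from 0.193 to 0.842.

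By transcript level, the sum of the enzymes was mostly Mmp12 and that of the inhibitors mostly Timp2, while protein and enzyme activity were not measured. Mmp12 made up between 69.1% and 73.8% of the summed RPKM of the 6 MMPs in every library, and Timp2 between 97.0% and 99.7% of that of the 3 TIMPs. The 6 MMPs over the 3 TIMPs gave 1.3, 1.56 and 0.626 in WT and 1.70, 1.41 and 1.5 in KO. The groups overlapped, and WT 3 was the library where the summed TIMP transcripts exceeded the summed MMP transcripts. Mmp12 over Timp2 gave 0.919, 1.12 and 0.445 in WT and 1.23, 1.07 and 1.07 in KO. The size of these ratios depends on the length used. With the longest transcript, the mean was 342 RPKM for Mmp12 and 220 RPKM for Timp2.

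Adam17 over its inhibitor Timp3 did separate the groups, at 79.4, 131 and 104 in WT and at 57.2, 11.2 and 22.5 in KO in RPKM. The separation came with Timp3, since Adam17 itself overlapped between groups. The share of Timp3 in the TIMP sum was 0.239%, 0.161% and 0.153% in WT and 0.344%, 1.63% and 0.897% in KO, so it stayed a minor inhibitor by transcript level. The 10 genes together took 0.295%, 0.347% and 0.132% of the TMM-scaled counts in WT and 0.371%, 0.347% and 0.294% in KO.

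The other genes of the system were read from lists by role, in each of which edgeR's quasi-likelihood test called 0 genes. Of 17 other MMPs, 7 passed the filter and 3, among them Mmp1b beside Mmp12, had no count in any library. All 7 were higher in value in KO (median log2 fold change 0.46). Mmp9, gelatinase B, was at 40.7, 29.9 and 11.2 CPM in WT and 36.1, 37.5 and 39.0 CPM in KO. WT 3 was again the low library. Mmp8 and Mmp9 are also in the list of neutrophil markers, whose summed levels are given above, and their source was not tested. Mmp25, a membrane enzyme of leukocytes, did not overlap, at 3.05, 2.47 and 1.73 CPM in WT and 4.39, 3.36 and 8.51 CPM in KO (log2 fold change 1.17, adjusted p = 0.836 by edgeR's quasi-likelihood test, and 1.42 without FOXO3 KO 2).

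Of the other ADAM proteases, 8 of 9 tested were higher in KO in value and 1 lower, with a median log2 fold change of 0.32. The lower one was Adam19, at 60.5, 39.0 and 81.2 CPM in WT and 26.7, 18.3 and 36.1 CPM in KO (log2 fold change -1.16, adjusted p = 0.731 by edgeR's quasi-likelihood test, and -0.94 without FOXO3 KO 2), the groups not overlapping. Adam12 was at 1.61, 1.52 and 1.01 CPM in WT and 3.08, 6.35 and 5.52 CPM in KO, with a log2 fold change of 1.85 that DESeq2 called (adjusted p = 0.00119) and edgeR's quasi-likelihood test did not (adjusted p = 0.714), and of 1.64 without FOXO3 KO 2. Its libraries ranked as those of Timp3 did.

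The ADAMTS proteases, secreted relatives that cut proteoglycans and procollagens, gave 3 higher and 2 lower in value of 5 tested by edgeR. DESeq2 tested 8 and called 2, Adamts1 and Adamts9, beside 0.956% of all genes. Adamts1 was at 0.942, 0.847 and 0.391 CPM in WT and 2.98, 2.26 and 2.61 CPM in KO. Its KO libraries were close to each other, unlike those of Timp3, and its log2 fold change was 1.85 (adjusted p = 0.00336 by DESeq2, 0.714 by edgeR's quasi-likelihood test), and 1.94 without FOXO3 KO 2.

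The partners of ADAM17 varied less than Timp3 in these libraries, with 1 of 4 higher and 3 lower in value (median log2 fold change -0.11). The largest change was that of Rhbdf1, at 5.84, 3.42 and 15.6 CPM in WT and 2.44, 4.67 and 4.14 CPM in KO. Its log2 fold change was -1.14 (adjusted p = 0.839 by edgeR's quasi-likelihood test), -0.30 without WT 3 and -1.33 without FOXO3 KO 2. Rhbdf2, an inactive rhomboid that carries ADAM17 to the surface, was at 54.5, 48.5 and 63.9 CPM in WT and 46.7, 52.8 and 54.5 CPM in KO. Furin, which removes the prodomain of ADAM17 and of MMP14, was at 183, 168 and 77.3 CPM in WT and 164, 175 and 164 CPM in KO. All of these named partners overlapped between the groups.

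Of 12 substrates of ADAM17 tested, 11 were higher in KO in value, with a median log2 fold change of 0.33. Tnf was at 5.01, 4.59 and 3.41 CPM in WT and 7.51, 8.36 and 6.72 CPM in KO, without overlap and with similar values in the 3 KO libraries (log2 fold change 0.79, adjusted p = 0.714 by edgeR's quasi-likelihood test, and 0.71 without FOXO3 KO 2).

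Of 10 other inhibitors and activators of matrix proteases tested, 9 were higher in value and 1 lower. The lower one was Serpinb2, an inhibitor of plasminogen activators, at 24.3, 19.6 and 418 CPM in WT and 18.0, 39.7 and 25.1 CPM in KO, so that its log2 fold change of -2.48 rested on WT 3 and was 0.34 without it, and -2.83 without FOXO3 KO 2. Plat, tissue plasminogen activator, was at 1.47, 0.988 and 1.51 CPM in WT and 2.37, 7.52 and 3.60 CPM in KO. DESeq2 called it with all libraries (adjusted p = 0.0426), and edgeR's quasi-likelihood test did not. Its highest value was in the library labelled FOXO3 KO 2, in which Foxo3 was at its WT level. Reck, a membrane inhibitor of MMP2, MMP9 and MMP14, was at 0.886, 0.953 and 1.73 CPM in WT and 1.28, 1.53 and 1.56 CPM in KO. Lrp1, the receptor that clears MMP-TIMP complexes, was lowest in WT 3 at 1118 CPM, where the other libraries lay between 2377 and 2994 CPM.

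The matrix proteins that these enzymes cut gave 8 of 8 higher in value in KO. Their median log2 fold change was 1.70, and 1.0 without FOXO3 KO 2. Their summed level overlapped between groups, at 5117, 4665 and 9034 CPM in WT and 8298, 6827 and 9459 CPM in KO. WT 3 was the highest WT library in this sum, although it was the lowest library for 7 of the 8 genes and the highest for 1. Col1a1, a chain of type I collagen, was at 7.81, 6.35 and 5.20 CPM in WT and 12.5, 50.4 and 34.5 CPM in KO. DESeq2 called 3 of the 8 with all libraries, beside 0.956% of all genes. The libraries ranked as for Timp3 in 5 of the 8 (Eln, Col1a1, Col1a2, Col4a1 and Col4a2), beside 129 (0.827%) of all other genes tested. This order can occur only among the 1093 genes with all KO libraries above all WT libraries. Col1a1 and Col1a2 were already counted for it among the fibroblast markers. Col1a1, Col1a2 and Col3a1 are also in the list of fibroblast markers, whose summed levels are given above, and their source was not tested.

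Left without WT 3, the lists kept their side of 0 in the median, with the value nearest 0 for the other ADAMs. The median log2 fold change was then 0.37 over 9 other MMPs, 0.07 over 9 other ADAMs with 6 higher and 3 lower in value, 0.95 over 6 ADAMTS proteases, -0.15 over the 4 partners of ADAM17, 0.30 over its 12 substrates with 8 higher and 4 lower, 0.51 over the 10 other inhibitors and activators, and 1.55 over the 8 matrix proteins. Without FOXO3 KO 2 the same medians were 0.54, 0.43, 0.93, -0.12, 0.36, 0.26 and 1.0. Those of all genes tested were 0.00 and -0.02.

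Several of the 10 genes share exon bases with a gene on the opposite strand, and whether the counting used strand is not stated, so reads there cannot be told apart. Timp3 shares 1733 bp with Syn3, which itself had between 2 and 30 counts in any library beside 66 to 890 for Timp3. Mmp19 shares 789 bp with Tmem198b, which had 564 to 975 counts, and Adam17 shares 311 bp with Iah1, which had 980 to 1600 counts. Timp1 lies inside Syn1 without a shared exon base, and Mmp12 shares 157 bp with Mmp1b, which had 0 counts in every library.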

How the data were processed

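Reads were pairs of 76 bp. The authors deposited estimated counts per gene symbol, without normalization; these were rounded, 81.4% of them being whole to within 0.01. The submitters' processing notes name STAR 2.6.1d, kallisto 0.46.0, DESeq2 and mm10 without their roles. Totals were 28083393 to 36424117 counts, where 3 counts are 0.0831 to 0.109 CPM.

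Groups were compared with edgeR 4.0.16 (R 4.3.3; filterByExpr, TMM factors of 0.936 to 1.10, glmQLFit and glmQLFTest) over all libraries as labelled, and p-values were adjusted by Benjamini-Hochberg over the whole table. Standard errors came from dividing a log2 fold change by the root of its F statistic. Exact permutation tests used log2(CPM + 0.5). Exon lengths, positions and overlaps were taken from GENCODE M21 (GRCm38), where 98.8% of symbols had 1 gene model. Alternatives were DESeq2 1.42.0, the likelihood ratio test, limma-voom (limma 3.58.1), other scalings and filters, a replicate block, an Xist covariate and each library left out. Tests were checked on simulated counts with 200 changed genes, for the sign and size of fold changes. The simulation held no library that stood apart or went against its label, so it does not show how the tests behave with such libraries.

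The genes, the lists by role and the marker lists were chosen with earlier results of these data known. The text names the 10 genes, Foxo3, exon-overlapping genes, listed markers, and per list of at least 1 CPM up to 4 genes of largest change or those whose role on the 10 genes is described. Genes named for sharing the order of libraries of Timp3, and those named by what DESeq2 called, were chosen after their values were seen.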

Additional observations from a re-analysis of the deposited data

How the results depend on the processing

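All genes called numbered 0 with edgeR's quasi-likelihood test and 0 to 0 when any 1 library was left out. They numbered 166 with DESeq2, 109 with the likelihood ratio test and 104 with DESeq2 without FOXO3 KO 2. In fits chosen after seeing the data they numbered 164 (DESeq2 without WT 3), 4 (edgeR without WT 3 and FOXO3 KO 2), 244 (DESeq2 without both) and 17 (edgeR with the Xist covariate and without FOXO3 KO 2). Of the 10 genes, 1 (Timp3) was called by DESeq2, 1 by the likelihood ratio test and 1 by DESeq2 without both libraries, and 0 otherwise; the cause was not tested. The replicate block called 0 genes and 0 of the 10. Same-numbered libraries deviated together at r = 0.26, -0.07 and 0.52, and WT 2 was closest to FOXO3 KO 1 (0.55), so the numbers were not taken as pairs.

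Over 22 settings the log2 fold change of Timp3 lay between 1.53 and 2.95, of Timp1 between 1.23 and 2.15, of Mmp13 between 0.42 and 1.36, of Mmp12 between 0.11 and 0.92 and of Mmp19 between 0.05 and 1.02. The sign turned where WT 3 was left out. Without WT 3 by edgeR, by DESeq2, without FOXO3 KO 2 also by edgeR, and by DESeq2, the values were -0.033, -0.050, -0.053 and -0.063 for Mmp27, -0.034, -0.052, -0.057 and -0.067 for Adam17, and -0.0069, -0.023, -0.069 and -0.078 for Timp2. For Mmp14 the last 3 of these fits gave -0.014, -0.096 and -0.11. With each library left out in turn, Mmp27 ranged from -0.033 to 0.88, Adam17 from -0.034 to 0.42 and Timp2 from -0.0069 to 0.27. With the longest transcript as length, mean RPKM moved to 342 for Mmp12, 34.6 for Mmp14 and 65.5 for Adam17. With 3 libraries a group, counts of Timp1 (9 in WT 3) and Mmp2 limit precision, and intervals take the spread between libraries as the only error.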
